A study of Mus musculus with 9 samples.

Results

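The liver builds triglyceride by adding fatty acids to a glycerol backbone one after another, and the 9 genes described here encode enzymes of that assembly line: Gpam, Agpat2, Agpat3, the lipins Lpin1, Lpin2 and Lpin3, Dgat1, Dgat2 and Mogat1. They were selected by gene symbol in the authors' signal sheet. Where a symbol had several probe sets, the one brightest on average over the 9 arrays would have been chosen by that mean; 0 of the 9 symbols had more than 1. They are 9 of the 22206 probe sets measured. The set of genes was itself selected on earlier results of these data, so their values are a description.

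The arrays hold liver RNA of male C57BL/6JHamSlc-ob/ob mice, which lack functional leptin, overeat and store fat in the liver. The mice came at 6 weeks of age, had 1 week of acclimatisation, and then received vehicle, 50 mg/kg (VE50) or 100 mg/kg (VE100) of an extract of Vigna umbellata, the rice bean, by oral gavage for 42 days on standard chow. All 3 groups carry the ob/ob genotype and each has 3 Clariom S mouse arrays; wild-type mice were not analysed here. Arrays of a group carry numbers in the labels, but no label states that each came from another mouse, so p-values measure only the spread between these arrays, which may be technical. Feeding state and hour of sampling are not given in the sources used here. The comparisons ask how liver expression under each dose differed from vehicle and whether the doses differed.

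In the glycerol phosphate route, glycerol-3-phosphate acyltransferases add the first fatty acid, acylglycerolphosphate acyltransferases add the second to give phosphatidate, phosphatidate phosphatases of the lipin family remove the phosphate to give diacylglycerol, and diacylglycerol acyltransferases add the last fatty acid. Monoacylglycerol acyltransferases reach diacylglycerol by a shorter route. Lipin 1 also enters the nucleus, where it acts with the coactivator PGC-1 alpha on genes of fatty acid oxidation; in mice its loss causes fatty liver in the newborn and lack of body fat. Loss of AGPAT2 likewise causes lipodystrophy in people and mice.

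Vehicle 3 stood apart from the other arrays. Across all probe sets its signal correlated between 0.948 and 0.967 with the others, against 0.974 to 0.990 among the other 8. It was the lowest of the 9 arrays for 5 of the 9 genes (Agpat3, Lpin1, Lpin2, Dgat1 and Dgat2), and vehicle 1 was the highest, or tied for it, for 5 (Gpam, Agpat2, Agpat3, Lpin2 and Dgat2). Differences from vehicle that moved by over 1.5 times, or changed their call, without vehicle 3 are given both ways. Hepatocyte markers were above the negative controls for 8 of 8 genes on all 9 arrays. A gene counts as above the negative controls on an array where its value in the deposited value table exceeds the 95th percentile of that array's negative control probes there. Of the 9 genes, 6 did so on all 9 arrays, beside 2744 of all 22206 probe sets. On a single array, 14.3% (vehicle 3) to 20.2% (vehicle 1) of all probe sets did so. Mogat1 did so on 3 arrays, and Lpin3 and Dgat1 on 0, so no fold is given for those last 2. Signal of different probe sets cannot be compared, so the level of each of the 9 genes is set only against the same gene on other arrays. In whole liver, fewer cells of a type and less RNA per cell cannot be told apart.

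At the first acylation step, Gpam encodes the mitochondrial glycerol-3-phosphate acyltransferase, which commits glycerol to lipid synthesis. Its log2 signal was 17.73, 16.78 and 16.41 on the 3 vehicle arrays, 16.88, 16.22 and 16.14 in VE50, and 16.58, 16.30 and 14.39 in VE100. VE100 3 lay far under the other 8 arrays, which overlapped between groups. Against vehicle, VE100 lay at a log2 difference of -1.22 ± 0.54 (SE from the limma fit, as for all differences below), a 2.32-fold lower signal. Without VE100 3 the difference was -0.53. In the authors' deposited table of VE100 against vehicle, Gpam has a fold score of -1.34, a p-value of 0.0488 and a false discovery rate of 0.6092. The group averages in that table, 16.85 and 16.43, differ from the plain means of the arrays, 16.97 and 15.76. VE50 lay at -0.56 ± 0.54. Without vehicle 3 the differences were -1.50 ± 0.55 for VE100 and -0.84 for VE50.

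The second acylation is carried out by Agpat2 and Agpat3. Agpat2 is the acyltransferase most tied to fat storage. Its signal was 14.23, 14.07 and 13.17 in vehicle, 13.09, 13.16 and 13.33 in VE50, and 12.19, 13.10 and 12.93 in VE100. All 3 VE100 arrays lay below all 3 vehicle arrays, though VE100 2 lay close under vehicle 3; VE50 overlapped vehicle through vehicle 3 alone. The group means were 13.82 ± 0.57 for vehicle, 13.19 ± 0.12 for VE50 and 12.74 ± 0.48 for VE100 (SD, n = 3 each). The difference from vehicle was -1.08 ± 0.33 for VE100, a 2.12-fold lower signal, and -0.63 ± 0.33 for VE50. Without vehicle 3 these were -1.41 ± 0.28 and -0.96 ± 0.28. The authors' deposited table gives Agpat2 a fold score of -2.23, a p-value of 0.0203 and a false discovery rate of 0.547. The group averages in it, 14.14 for vehicle and 12.99 for VE100, differ from the plain means of the arrays, 13.82 and 12.74.

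Agpat3 encodes a related acyltransferase that also serves phospholipid synthesis. Vehicle arrays read 15.83, 15.60 and 13.60, which enclosed all treated arrays: VE50 read 14.88, 14.71 and 14.69, and VE100 read 14.37, 15.12 and 14.04. The vehicle SD was 1.23 and the VE50 SD 0.10 (n = 3 each). Over all arrays the difference was -0.25 ± 0.52 for VE50 and -0.50 ± 0.52 for VE100. With vehicle 3 left out it became -0.96 ± 0.30 and -1.21 ± 0.30, with every treated array below the remaining vehicle arrays.

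Lpin1, whose product is the lipin most studied in metabolism, lay the other way. Its signal was 11.36, 10.50 and 9.62 in vehicle, 12.21, 12.48 and 12.96 in VE50, and 10.64, 12.58 and 12.75 in VE100. Every VE50 array lay above every vehicle array, whereas VE100 1 lay inside the vehicle range and the other 2 VE100 arrays lay with VE50. The group means were 10.49 ± 0.87 for vehicle, 12.55 ± 0.38 for VE50 and 11.99 ± 1.17 for VE100 (SD, n = 3 each). The difference from vehicle was 2.06 ± 0.57 for VE50, a 4.16-fold higher signal, and 1.5 ± 0.57 for VE100, a 2.82-fold higher signal. Only 0.0180% of all probe sets had a larger absolute difference for VE50, and 0.450% for VE100. Without vehicle 3 the differences were 1.62 ± 0.54 and 1.06 ± 0.54, and without VE100 1 that for VE100 was 2.17. The authors' deposited table gives Lpin1 a fold score of 4.49 for VE100 with a p-value of 0.0153 and a false discovery rate of 0.5257. The VE100 average in it, 12.66, differs from the plain mean of the arrays, 11.99.

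Lpin2 encodes the second lipin, abundant in liver. Vehicle arrays read 13.96, 12.67 and 11.81, VE50 read 13.83, 13.21 and 13.51, and VE100 read 13.81, 13.96 and 12.71. Vehicle alone spanned 2.15, the whole range of the 9 arrays, so the groups overlapped fully. The difference was 0.70 ± 0.51 for VE50 and 0.68 ± 0.51 for VE100, and it shrank to 0.20 and 0.18 without vehicle 3. Lpin3, the third family member, was read between 4.28 and 5.61 on all arrays, under the negative control level throughout. The lipin family thus gave a large difference for Lpin1, one within the array spread for Lpin2, and no usable signal for Lpin3. Whether the lipins differ from each other was not tested.

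**Figure D1:**
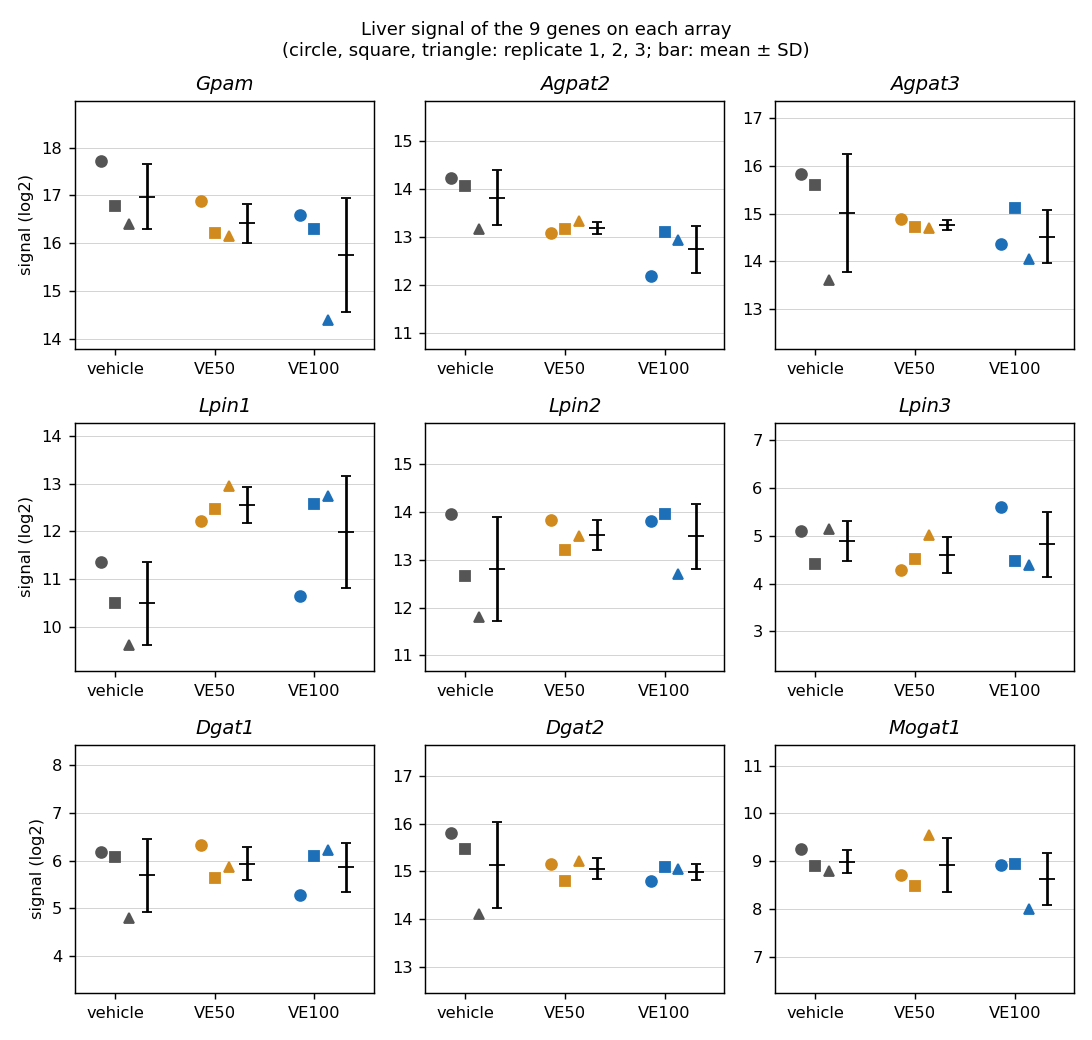
Log2 signal of each gene (vertical axis, the same span in every panel) in vehicle, VE50 and VE100 livers, with 1 symbol per array and the mean ± SD of 3 arrays beside them. The 3 VE50 arrays of Lpin1 sit above its vehicle arrays, the 3 VE100 arrays of Agpat2 sit below its vehicle arrays, and vehicle 3 (grey triangle) is lowest for Agpat3, Lpin1, Lpin2, Dgat1 and Dgat2.

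The promoters of Lpin1 and Agpat2 are shown because these genes lay in opposite directions from vehicle. RefSeq windows (GRCm38.p6) run from 250 bases before to 50 after an annotated start; 7 of the 9 genes matched, and Dgat1 and Dgat2 were not matched. The Lpin1 window is chr12:16610917-16611216 and the Agpat2 window chr2:26604368-26604667, both on the minus strand and written 5′ to 3′ along the gene. Capitals mark matches, on either strand, to 5 motifs: CACGTG (the E-box), TGTTCT (a steroid receptor half-site), AGGTCA (a nuclear receptor half-site), GGGCGG (the GC-box) and CCAAT.
Lpin1: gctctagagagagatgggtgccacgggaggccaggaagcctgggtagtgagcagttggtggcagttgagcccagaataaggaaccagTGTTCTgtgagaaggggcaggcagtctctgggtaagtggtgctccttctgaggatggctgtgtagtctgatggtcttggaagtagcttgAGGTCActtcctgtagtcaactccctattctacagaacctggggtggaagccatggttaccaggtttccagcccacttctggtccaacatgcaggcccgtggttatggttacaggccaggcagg
Agpat2: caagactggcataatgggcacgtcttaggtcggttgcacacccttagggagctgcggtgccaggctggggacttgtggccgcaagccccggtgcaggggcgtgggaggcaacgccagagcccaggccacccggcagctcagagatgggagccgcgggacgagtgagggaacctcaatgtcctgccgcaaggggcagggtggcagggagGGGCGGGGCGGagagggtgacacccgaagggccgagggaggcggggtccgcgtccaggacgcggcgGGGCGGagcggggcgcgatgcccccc
The Lpin1 window holds 1 TGTTCT, starting at -163 from the start, and 1 AGGTCA, at -74. These occur in 19.0% and 16.3% of all 32851 windows of that length. Its GC content is 55.3%, and it holds 0 GC-boxes. The Agpat2 window is 72.0% GC and holds 3 GC-boxes, at -42, -37 and 24, of which the first pair overlap by 1 base; 35.7% of windows hold at least 1. Neither window holds CACGTG, which 7.15% of windows do, or CCAAT (37.4%). These matches are descriptions of the letters only, and which start the liver uses was not measured.

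The last acylation is shared by Dgat1 and Dgat2, unrelated enzymes with the same reaction. Dgat2, which handles newly made fatty acids in the liver, read 15.80, 15.48 and 14.11 in vehicle, 15.15, 14.80 and 15.22 in VE50, and 14.79, 15.10 and 15.06 in VE100. The treated arrays lay between vehicle 3 and the other vehicle arrays, with SDs of 0.23 in VE50 and 0.17 in VE100 against 0.90 in vehicle (n = 3 each). Differences were -0.07 ± 0.38 for VE50 and -0.15 ± 0.38 for VE100 over all arrays, and -0.58 ± 0.24 and -0.66 ± 0.24 without vehicle 3. Dgat1 was read between 4.81 (vehicle 3) and 6.32 (VE50 1), under the negative control level on every array. Mogat1, the monoacylglycerol acyltransferase that is raised in fatty mouse liver, read 9.26, 8.90 and 8.80 in vehicle, 8.72, 8.48 and 9.55 in VE50, and 8.92, 8.95 and 8.0 in VE100. Its groups overlapped, and the differences were -0.07 ± 0.34 and -0.36 ± 0.34, and -0.16 and -0.46 without vehicle 3.

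The calls among the 9 genes were set beside the shares over all probe sets. The submitters' criterion asks for a fold over 1.1 and p below 0.05 before adjustment. For VE50 it was passed by 1 of the 9 genes, Lpin1, higher, beside 6.12% of all probe sets (3.31% higher and 2.80% lower). For VE100 it was passed by 3 of 9, Lpin1 higher and Gpam and Agpat2 lower, beside 9.48% (5.11% higher and 4.37% lower). Arrays did not overlap for 1 of 9 genes for VE50, Lpin1, beside 10.9% of all probe sets (6.16% higher). For VE100 this was so for 1 of 9, Agpat2, beside 13.6% (6.08% lower). No gene of the 9 passed an adjusted p of 0.05: with limma's moderated test and Benjamini-Hochberg adjustment over all 22206 probe sets, the smallest adjusted p was 0.794 (Lpin1) for VE50 and 0.401 (Agpat2) for VE100. Limma called 0 probe sets of the whole array in any comparison with all 9 arrays, while 1358, 2105 and 647 had an unadjusted p under 0.05 and passed the criterion for VE50, VE100 and the difference between doses. The median difference of the 9 genes was -0.07 for VE50 and -0.15 for VE100, beside -0.01 for all probe sets in both; 6 of 9 lay below 0 at each dose, where 50.8% and 51.5% of all probe sets did.

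**Figure D2:**
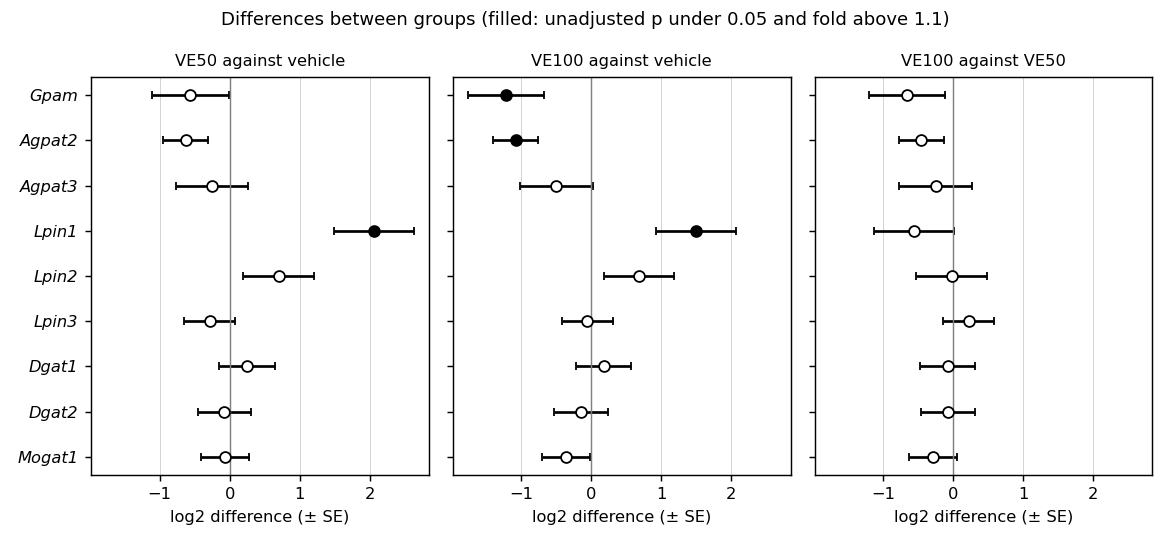
Log2 difference of each gene (points, with bars for the standard error from the limma fit) for VE50 against vehicle, VE100 against vehicle and VE100 against VE50; filled points passed the submitters' criterion. Lpin1 stands at 2.06 and 1.5 in the comparisons with vehicle, Gpam and Agpat2 at -1.22 and -1.08 for VE100, and no point is filled between the doses; Lpin3 and Dgat1 lay under the negative control level on every array.

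These counts moved with vehicle 3. Without it, 4 of 9 genes passed the criterion for VE50 (Lpin1 higher; Agpat2, Agpat3 and Dgat2 lower), beside 13.5% of all probe sets (5.95% higher and 7.52% lower); 0 of 9 had an adjusted p under the threshold, as 0.0450% of all probe sets did. For VE100, 4 of 9 passed without it (Gpam, Agpat2, Agpat3 and Dgat2), all lower, beside 16.6% (9.62% lower), and Lpin1 no longer did. Agpat2 then had an adjusted p of 0.0299 for VE100 in limma's test over all probe sets, among 434 called (1.95%), and Agpat3 had 0.0655. Vehicle 1 and vehicle 2 had a negative less positive control median of -3.88 and -3.79, against -3.53 to -3.12 on the treated arrays, so without vehicle 3 treatment and this array measure cannot be told apart. This measure was entered as a covariate over all 9 arrays, an alternative added once the data had been seen. Agpat2 then lay at -0.29 for VE100 and did not pass the criterion, while Lpin1 lay at 3.02 for VE50 and 2.91 for VE100 and did. Agpat3 turned to 0.57 for VE50 and 0.71 for VE100, and Dgat2 to 0.56 and 0.79, the last past the criterion in the higher direction.

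Of the calls at the submitters' criterion, Lpin1 for VE50 was kept without any single array, from 1.62 to 2.49. Agpat2 for VE100 was also kept without any single array, from -1.41 to -0.81. Lpin1 for VE100 lost its call without vehicle 2 (1.5), vehicle 3 (1.06), VE100 2 (1.20) or VE100 3 (1.12). The Gpam call held in only 3 of 9 such fits and ranged from -1.63 to -0.53; it was lost without vehicle 1 (-0.84), vehicle 2 (-1.31) or VE100 3 (-0.53), and without any 1 VE50 array, where the difference stayed at -1.22 and only the spread changed. Lpin2 passed the criterion without vehicle 1, at 1.28 for VE50 and 1.25 for VE100, and also at both doses with the control covariate.

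**Figure D3:**
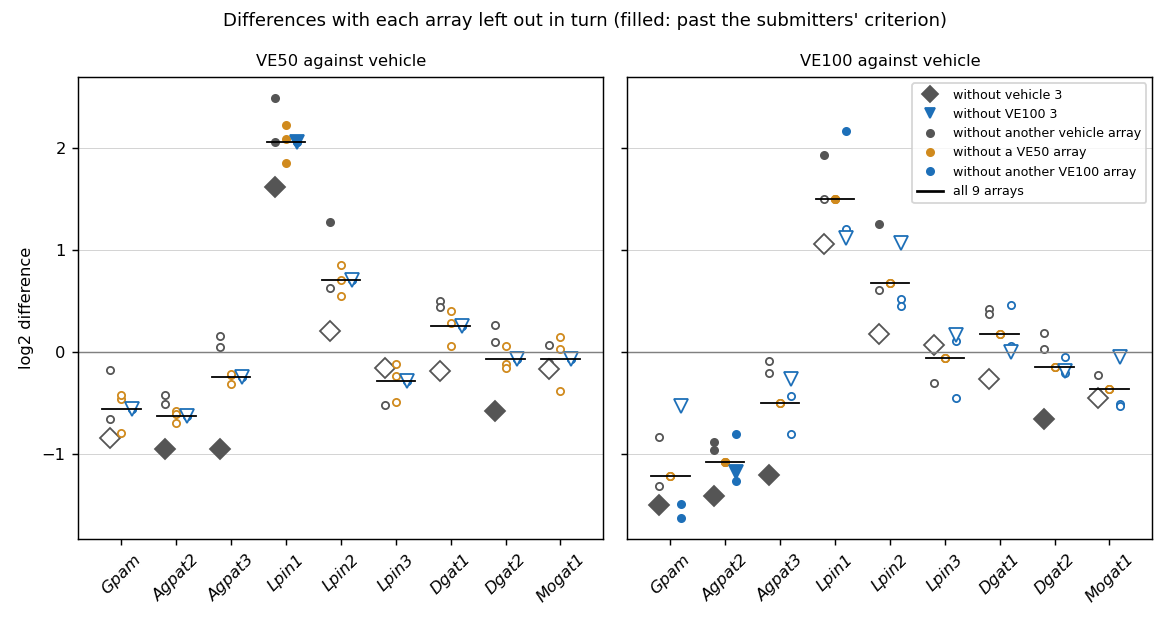
Log2 difference of each gene from vehicle (vertical axis) when each of the 9 arrays is left out in turn; horizontal lines mark all 9 arrays, diamonds the fit without vehicle 3, downward triangles that without VE100 3, and filled symbols pass the submitters' criterion. Lpin1 stays filled throughout for VE50 and Agpat2 for VE100, whereas Agpat3 and Dgat2 are filled only without vehicle 3.

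Between the doses, 0 of the 9 genes passed the criterion, beside 2.91% of all probe sets, and 8 of 9 lay lower in VE100 (50.8% of all probe sets did). Leaving aside Lpin3 and Dgat1, which lay under the negative controls, the differences ran from -0.66 ± 0.54 for Gpam to -0.02 ± 0.51 for Lpin2. Lpin1 lay at -0.56 ± 0.57, a gap made by VE100 1, without which it was 0.12 in the other direction. Agpat2 lay at -0.45 ± 0.33. The median over the 9 genes was -0.25, beside 0.00 for all probe sets, and limma's adjusted p was 0.9997 for each of the 9.

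Around the 9 genes, 69 other genes of glycerolipid metabolism were listed in 5 groups, of which 67 were measured under 1 symbol. At the submitters' criterion 2 of 67 passed for VE50 (2.99%, both lower) and 3 of 67 for VE100 (4.48%, 1 higher and 2 lower), below the share of all probe sets in both comparisons. Their median difference was 0.06 for VE50 and 0.07 for VE100. Without vehicle 3, 13 passed for VE50, 12 of them lower, and 14 for VE100, 13 of them lower. These shares, 19.4% and 20.9%, lay above those of all probe sets without that array, 13.5% and 16.6%. The medians were then -0.17 and -0.23, beside 0.02 and 0.03 over all probe sets.

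Chpt1, a choline phosphotransferase that turns diacylglycerol into phosphatidylcholine, lay lowest of the named ones. Its signal was 15.89, 15.66 and 15.68 in vehicle, 15.03, 14.39 and 14.84 in VE50, and 14.18, 15.06 and 14.41 in VE100. All 6 treated arrays lay below all 3 vehicle arrays. The difference was -0.99 ± 0.27 for VE50 and -1.19 ± 0.27 for VE100, and the call held without any single array. In the deposited value table the same differences were smaller, -0.58 and -0.73, and that for VE50 no longer passed. With the hybridization controls as a covariate neither call held, and the difference for VE100 was -0.59. The other call in this group of 23 genes was Chkb, a choline kinase, for VE100 at 0.84 ± 0.26, with arrays at 7.88, 7.95 and 7.39 in vehicle and 8.19, 8.80 and 8.75 in VE100, all under the negative control level.

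Gpd1, the cytosolic glycerol-3-phosphate dehydrogenase that makes the backbone Gpam uses, was the only call among the 16 measured genes of glycerol 3-phosphate and acyl-CoA supply. Vehicle arrays read 17.54, 17.78 and 16.59, VE50 read 16.55, 16.21 and 16.39, and VE100 read 16.19, 17.01 and 15.89. VE50 lay wholly below vehicle, though close to vehicle 3, and VE100 overlapped it. The differences were -0.92 ± 0.36 and -0.94 ± 0.36, and without vehicle 3 they were -1.28 and -1.30. Each call held in 5 of 9 fits with 1 array left out: both were lost without vehicle 1 or vehicle 2, that for VE50 also without VE50 2 or VE50 3, and that for VE100 also without VE100 1 or VE100 3. Both were also lost with the control covariate (-0.45 and -0.25) and with the hybridization controls as a covariate (-0.27 and 0.15). Acsl4, an acyl-CoA synthetase that prefers arachidonate, lay at -0.59 ± 0.31 for VE100 and did not pass, and at -0.35 without vehicle 3.

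No gene passed in the other 3 groups at either dose. Among 9 other acyltransferases, Gpat4, the main glycerol-3-phosphate acyltransferase of the endoplasmic reticulum in liver, lay at 0.85 ± 0.45 for VE100, Agpat1 at -0.49 ± 0.23, and Tmem68 at 0.75 ± 0.38 for VE50. Without vehicle 3, Agpat1 passed for VE100, at -0.58, and Tmem68 lay at 0.50 for VE50. Tmem68 exceeded the negative controls on 1 array. Among 9 measured lipin partners and regulators, Cnep1r1, the subunit of the phosphatase that activates lipins, lay at -0.51 ± 0.31 for VE50 and -0.55 ± 0.31 for VE100; its vehicle 3 value of 9.12 stood above 7.69 to 8.18 on the other arrays, and without vehicle 3 its differences were -0.15 and -0.19. Cnep1r1 exceeded the negative controls on 2 arrays. Pparg, a nuclear receptor that drives fat storage genes in ob/ob liver, lay at -0.49 ± 0.51 for VE100. It lay at -1.20 without vehicle 3, where it passed, and at 0.56 with the control covariate. In the packaging group of 10, Fitm1 lay at -0.44 ± 0.29 and Tmem159, a seipin partner at lipid droplets, at 0.30 ± 0.20 for VE100, and Pnpla3 at 0.41 ± 0.32 for VE50; Tmem159 and Pnpla3 lay under the negative controls on all arrays, and Fitm1 exceeded them on 3. In the deposited value table Fitm1 lay the other way, at 0.38 for VE100, and at 1.14 for VE50, where it passed (-0.04 in the signal sheet). Without vehicle 3, Pnpla3 lay at 0.08 for VE50.

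**Figure D4:**
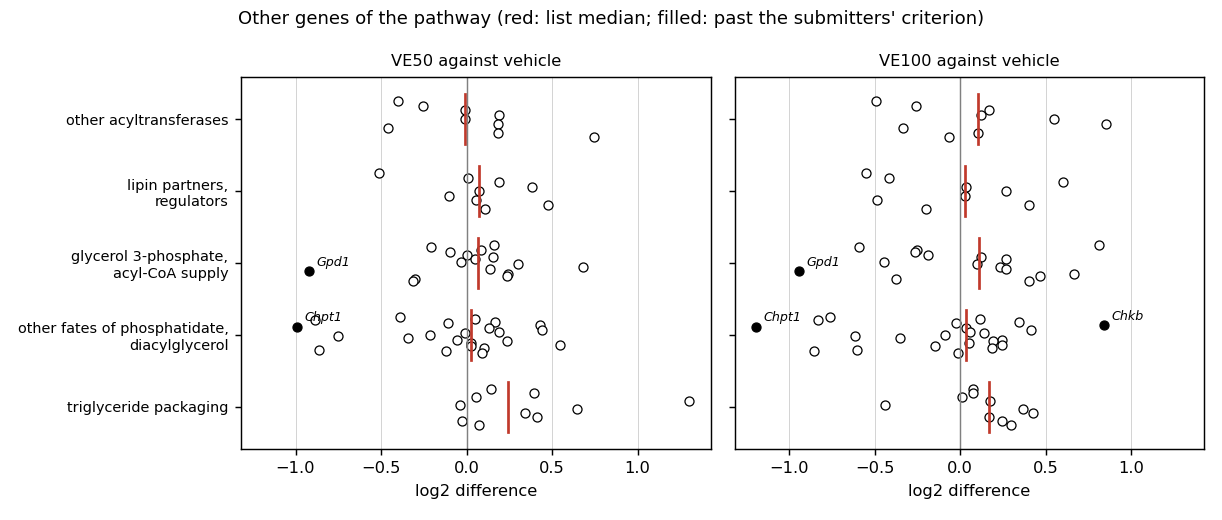
Log2 difference from vehicle (horizontal axis) of 67 other genes of glycerolipid metabolism in 5 groups, for VE50 and VE100; each point is a gene, red lines are group medians, and filled, named points passed the submitters' criterion. The medians lie near 0, and Gpd1 and Chpt1 are the lowest filled points at both doses.

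For 3 of the genes, the single-symbol genes nearest in pattern were found by the root mean square difference of log2 signal over the 9 arrays. Each gene was centred on its own mean. A gene with the same value on every array would score 1.12 against Lpin1, 0.57 against Agpat2 and 0.70 against Lpin2. The nearest genes lie under the median over all genes by selection. Nearest to Lpin1 was Ciart, a repressor of the circadian clock, at 0.40, where the median over all genes was 1.17. Next came Arhgef26, a guanine nucleotide exchange factor (0.53), Ttc39c (0.61), Cebpb, a transcription factor of the liver (0.65), and St3gal5, a ganglioside synthase (0.65). Ciart shared the low VE100 1 and vehicle 3 values of Lpin1. For Agpat2 the nearest genes were closer: Dnajc22 (0.14), Tgfbr3 (0.17), the phosphatase subunit gene Ppp2r1a (0.17) and Abhd14b (0.19), beside a median of 0.67. All 4, like Agpat2, were highest on vehicle 1 and 2 and lowest on VE100 1. For Lpin2 they were Mylip, an E3 ligase of the LDL receptor (0.34), Tmem245 (0.36), Pcyt1a, the rate-limiting enzyme of phosphatidylcholine synthesis (0.36), Tgfbi (0.36) and Spata6 (0.37), beside 0.77. Leaving aside Lpin3 and Dgat1, the closest pair among the 9 genes was Agpat3 with Dgat2 (0.34), both lowest on vehicle 3.

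**Figure D5:**
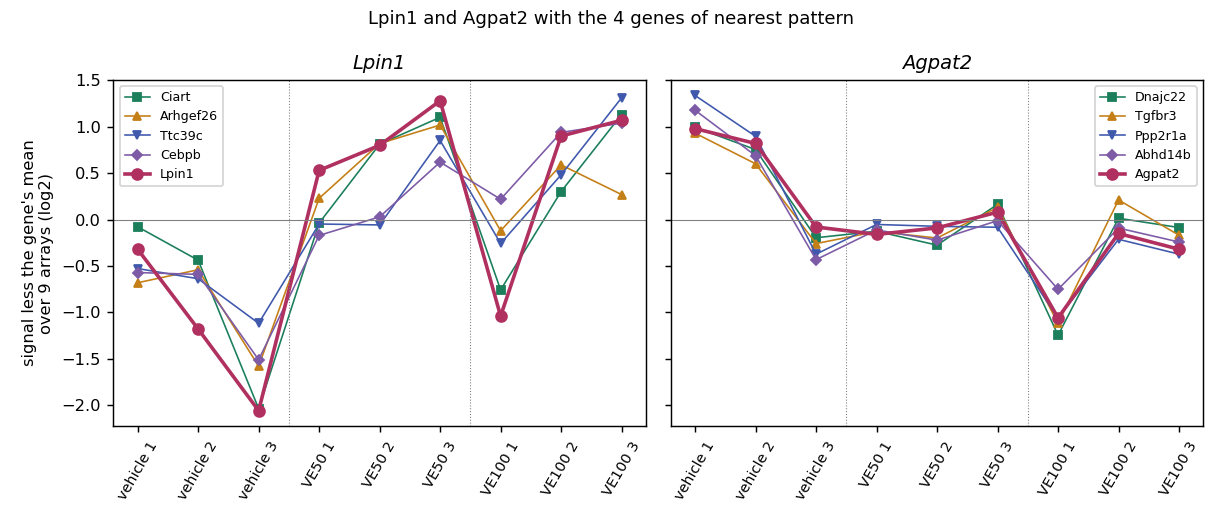
Log2 signal less each gene's mean over the 9 arrays (vertical axis) for Lpin1 and for Agpat2 (thick lines) with the 4 genes of nearest pattern (thin lines); lines only link the points of a gene, and dotted lines part the groups. Lpin1 and Ciart are both low on vehicle 3 and VE100 1, and the genes around Agpat2 are high on vehicle 1 and vehicle 2 and lowest on VE100 1.

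Markers of other cells were summed per array as a check on the tissue. Such a sum follows its brightest probe sets, Spi1 and Cd5l in the macrophage list and Dcn in the stellate list, and is set only against the same sum on other arrays. The macrophage and Kupffer cell list (9 of 9 genes measured, 3 above the negative controls on any array) had a summed log2 signal of 11.19 to 11.51 in vehicle, 9.99 to 11.63 in VE50 and 9.11 to 10.23 in VE100, with Adgre1, Clec4f, Timd4, Vsig4, Marco and Cd68 under the negative controls throughout. This sum was lower on every VE100 array than on any vehicle array, as Agpat2 was, and its part in the result was not tested. In that list 3 of 9 genes passed the submitters' criterion for VE100, all lower, beside 4.37% of all probe sets. They were Adgre1 at -1.05 ± 0.28, Cd5l at -2.13 ± 0.64 and Spi1 at -2.40 ± 0.57. In all, 8 of the 9 lay below 0. Of those that did not pass, Clec4f lay at 0.15 ± 0.58 and Timd4 at -0.17 ± 0.35. Without vehicle 3, 6 of 9 passed, all lower, beside 9.62% of all probe sets. Spi1 then lay at -2.91 with an adjusted p of 0.0202 in limma's test over all probe sets. In the adipocyte list 7 of 8 genes, Adipoq, Plin1 and Lep among them, lay under the negative controls on all 9 arrays; the eighth, Car3, is also made by hepatocytes and read 17.51 to 18.67. All 8 muscle, 7 neutrophil and 6 pancreatic acinar markers were under that level on every array, although 3 of the 8 muscle genes passed the submitters' criterion as higher for VE100, beside 5.11% of all probe sets. Only 14.3% to 20.2% of all probe sets exceeded that level on an array, so most genes lie under it. Markers under it therefore do not show that another tissue was absent. Summed endothelial signal was 10.11 to 11.13 in vehicle, 10.32 to 10.67 in VE50 and 10.17 to 10.56 in VE100. It overlapped only through vehicle 3, at 10.11; vehicle 1 and vehicle 2, at 11.02 and 11.13, lay above all 6 treated arrays, as they did for Agpat2, Agpat3 and Dgat2, and its part in those results was not tested. The stellate and fibroblast sum was 13.08 to 13.95, 13.56 to 14.40 and 13.80 to 14.36 in the same order, the cholangiocyte sum 8.98 to 9.86, 8.42 to 10.97 and 8.59 to 9.47, and that of 3 measured erythroid genes 8.46 to 8.95, 8.35 to 8.79 and 8.44 to 9.09. These last 3 sums overlapped between groups.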

How the data were processed

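Liver RNA from 9 arrays was analysed, 3 each of vehicle, VE50 and VE100. The authors' signal sheet holds log2 signal per probe set; the design text credits this to SST-RMA in Transcriptome Analysis Console 4.0.2, a method that corrects background and normalises between arrays, so a difference is relative to the rest of the array. The series' deposited value table gives log2 values for these arrays, control probes included, and RMA and Transcriptome Analysis Console 4 are the tools in the submitters' processing notes. The authors' filtered table of VE100 against vehicle gives a deposited p-value, a false discovery rate and a signed fold score. The authors' F-test p-values over unnamed conditions were not used. No batch or scan time is given in the sources used here. All 22206 probe sets were fitted with a mean per group in limma 3.58.1 (lmFit, eBayes) under R 4.3.3, with two-sided p-values adjusted by Benjamini-Hochberg over all of them and 0.05 as threshold. Background was the 95th percentile of 5222 negative control probe sets in the deposited value table. The genes and the 5 pathway and 10 marker lists were chosen with earlier results of these data known. Named genes are the 9, the 2 of each pathway list with the smallest p for VE100 and the 1 for VE50, and the 5 nearest in pattern to Lpin1, Lpin2 and Agpat2, predicted genes passed over; 1 of these is not reported here. Alternatives were the replicate number as a block, each array left out, a filter on dim probe sets, median centring, the deposited value table, array weights, another moderation, the 6 arrays compared, and 2 control covariates added after seeing the data. The fit was tested on simulated data. The number of arrays limits precision. Replicate numbers were not taken as pairing the samples, since no label states that they do.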

Additional observations from a re-analysis of the deposited data

How the results depend on the processing

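Of the 9 genes and 12 other named genes in 3 comparisons, 1076 of 1131 recomputed differences moved by less than the spread between replicates, and 54 moved further. The 1076 include alternatives that could not move a difference. These were the replicate block, the filter on dim probe sets, the other moderation and the 6 arrays compared. Leaving out an array of the group not compared could not move it either. The count is therefore no measure of stability. Among differences past the submitters' criterion, 1 changed direction: Gpd1 for VE100 lay at 0.15 with the hybridization controls as a covariate, where the cause was not tested. The number of probe sets limma called, 0 in each comparison, ran from 0 to 10 for VE50 and from 0 to 434 for VE100 when single arrays were left out, both maxima without vehicle 3, and stayed at 0 between doses. For VE100 it was 125 with array weights and 1 each in the deposited value table and with the control covariate; the cause was not tested. Probe sets at the submitters' criterion numbered 1358, 2105 and 647, against 2902, 3743 and 1267 with array weights and 2799, 3525 and 1046 with the control covariate, 1322 for VE100 with the hybridization covariate, 1033 for VE50 and 434 between doses without the dimmest 25% of probe sets, and 1119 between doses in the 6 arrays compared; left-out arrays gave 987 to 2991, 1619 to 3688 and 413 to 1247. The number of the 9 genes at the criterion for VE50, 1, was 3 with array weights and 3 with either covariate, and 1 to 4 with single arrays left out. For VE100, 3, it ran from 1 to 4 with single arrays left out (1 without vehicle 2 or VE100 3), and between doses it was 0 in all 18 alternatives. With the control covariate, Lpin1, Lpin2 and Dgat1 passed at both doses, and Dgat2 for VE100. With the hybridization covariate, Lpin1, Lpin3 and Dgat1 passed at both doses. Lpin3 and Dgat1 lay under the negative controls on every array. Agpat2 for VE100 kept the criterion in 16 of 18 alternatives and Lpin1 in 14 for VE100 and 18 for VE50, but Gpam in 8. The call of Agpat2 was lost with the control covariate and with the hybridization covariate. Gpam for VE100 also lost its call with each of them, and lay at -0.51 with the hybridization covariate. The cause was not tested. With the replicate block, the same 1 and 3 genes passed and limma called 0 probe sets; same-numbered arrays had correlated deviations between -0.24 and 0.21, over 0.1 in 3 of 9 pairs, so the numbers were not taken as pairs. None of the 9 genes had another probe set to try, and the filter on dim probe sets removed Tmem159.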
